A study of Mus musculus with 156 samples.

Results

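The results below describe 10 immediate early genes, Fos, Fosb, Jun, Junb, Egr1, Ier2, Ier3, Btg2, Zfp36 and Klf6, in mouse embryonic stem cells (mESCs). They were chosen by name, without a threshold on any value, and are 10 of the 40914 genes of the deposited tables. Immediate early genes are genes that a cell can transcribe within minutes of a growth factor, serum or stress signal, with no new protein needed first. In most cells the signal runs through the ERK kinases to serum response factor and its ELK partners, or through CREB, at the genes' promoters, and many of the transcripts decay quickly. Fos, Fosb, Jun and Junb encode subunits of the AP-1 transcription factor, Egr1 and Klf6 encode zinc finger transcription factors, and Ier2 and Ier3 were named as immediate early responders. Zfp36 encodes tristetraprolin, which binds AU-rich elements and promotes decay of the mRNAs that carry them, and Btg2 encodes an antiproliferative BTG/TOB protein that p53 can induce and that helps to recruit mRNA deadenylases.

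The series followed RNA by poly(A) RNA-seq after doxycycline in 4 lines. One was a WT control, one a Firre knockout (KO) control, and each had a counterpart with an inducible transgene for Firre, a nuclear long noncoding RNA transcribed from the X chromosome. A short course with 12 times (every 30 min from 0 to 330 min) had 2 replicates (96 libraries, 48 groups), and a long course with 3 replicates sampled 0, 720, 1440, 2880 and 5760 min (60 libraries, 20 groups). Cells of all groups grew on gelatin with serum and LIF plus 2 inhibitors, PD0325901, which blocks MEK, the kinase directly above ERK, and CHIR99021, which blocks GSK3. Doxycycline followed seeding by a day and a change of medium by an hour, and the 0 min libraries received none. In the control lines the drug, the ageing of the medium and the hours in the dish can therefore not be told apart. Each genotype is 1 line, the promoter that drives the transgene is not given in the labels, and nothing says whether replicates were separate cultures, so p-values measure the spread between these samples, which may be technical.

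Libraries held 19013652 to 37195019 counts in the short and 18961799 to 47948630 in the long course. The summed level of 8 embryonic stem cell markers was 6461 to 9851 TPM (transcripts scaled for length and to the library) per library, against 0.987 to 4.98 for fibroblast markers and 10.8 to 25.4 for trophoblast markers. Firre, the induced gene, lay at 19.2 to 32.0 TPM in the short-course WT control and at 0.279 to 2.02 in the KO control. In the WT transgene line it was 45.5 and 41.4 TPM at 0 min and 422 and 424 at 30 min. The KO transgene line began at 1.38 and 1.94 TPM, had 130 and 142 at 30 min and reached 419 and 450 at 90 min.

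In mm10 coordinates (GENCODE M21), Btg2 (ENSMUSG00000020423.6) lies at chr1:134075170-134079120, Jun (ENSMUSG00000052684.4) at chr4:95049034-95052222 and Ier2 (ENSMUSG00000053560.5) at chr8:84661331-84662852, all on the minus strand. Junb (ENSMUSG00000052837.7) lies on the same chromosome as Ier2, at chr8:84974484-84978718, and Fosb (ENSMUSG00000003545.3) and Zfp36 (ENSMUSG00000044786.6) share another, at chr7:19302696-19310051 and chr7:28376784-28380253, again on the minus strand. Fos (ENSMUSG00000021250.13) at chr12:85473890-85477273, Klf6 (ENSMUSG00000000078.7) at chr13:5861482-5870394, Ier3 (ENSMUSG00000003541.6) at chr17:35821684-35822923 and Egr1 (ENSMUSG00000038418.7) at chr18:34859823-34864984 are on the plus strand. Libraries did not mark strand, so reads of overlapping antisense transcripts would be counted with these genes.

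The promoters shown are those of the 3 genes that passed a test of change over the short course. Each runs from 250 bases before to 50 bases after the start annotated by RefSeq (GRCm38.p6), 5′ to 3′ on the minus strand. Capitals mark matches, on either strand, to the cyclic AMP response element TGACGTCA (CRE), to which CREB binds, or to the CArG box that serum response factor binds.

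Btg2, chr1:134079106-134079405: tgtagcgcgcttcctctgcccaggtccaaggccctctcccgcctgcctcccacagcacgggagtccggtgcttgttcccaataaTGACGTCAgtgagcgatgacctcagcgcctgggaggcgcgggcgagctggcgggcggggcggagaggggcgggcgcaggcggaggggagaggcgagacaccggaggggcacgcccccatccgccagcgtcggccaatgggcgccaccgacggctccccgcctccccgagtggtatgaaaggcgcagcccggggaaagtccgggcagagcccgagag
Zfp36, chr7:28379179-28379478: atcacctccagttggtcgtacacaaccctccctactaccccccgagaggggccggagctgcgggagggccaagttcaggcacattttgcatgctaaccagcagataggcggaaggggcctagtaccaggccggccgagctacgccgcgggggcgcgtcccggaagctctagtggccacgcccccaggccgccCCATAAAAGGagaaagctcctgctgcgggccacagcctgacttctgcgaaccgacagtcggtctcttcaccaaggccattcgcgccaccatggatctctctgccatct
Junb, chr8:84978699-84978998: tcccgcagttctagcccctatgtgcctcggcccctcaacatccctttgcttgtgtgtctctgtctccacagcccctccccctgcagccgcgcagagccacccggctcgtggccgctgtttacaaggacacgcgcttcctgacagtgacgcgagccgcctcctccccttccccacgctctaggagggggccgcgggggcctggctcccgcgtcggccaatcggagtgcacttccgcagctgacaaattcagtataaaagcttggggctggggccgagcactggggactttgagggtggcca

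The Btg2 window held the CRE from base 166 to base 159 before the start, and 588 of 32851 promoters of this length (1.79%) held that motif. The Zfp36 window held the CArG box CCATAAAAGG from base 58 to base 49 before the start, and 535 promoters (1.63%) held a CArG box. The AP-1 motif TGANTCA, present in 2565 promoters (7.81%), was in none of the 8 promoters that could be matched (Ier2 and Egr1 were not), and the other 6 of these, Junb among them, held none of the 3 motifs. A match describes the letters of the window only, and a gene without one may hold the motif outside the window.

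The 10 genes spanned a wide range of levels, with Ier2 and Btg2 at the top and Egr1 and Fosb at the bottom. Over its 96 libraries Ier2 was at 74.5 to 109 TPM (median 89.9), Btg2 at 23.8 to 35.1 (median 29.8) and Klf6 at 6.99 to 11.6 (median 8.73), and these 3 ranges did not overlap. Junb was at 4.25 to 8.45 TPM (median 6.42), Ier3 at 3.16 to 6.44 (median 4.73), Jun at 2.83 to 4.47 (median 3.48), Zfp36 at 1.72 to 3.29 (median 2.42) and Fos at 1.09 to 2.76 (median 1.80), and each of these overlapped its neighbours in the order. Egr1 at 0.0421 to 0.421 TPM (median 0.185) and Fosb at 0.0168 to 0.315 (median 0.107) came last, and the ranges of Fos and Egr1 did not overlap. Their median counts per library were 11 and 8, so only large changes of these 2 genes could be seen. All 10 genes had counts in every library and passed the filter on low counts in both courses.

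**Figure D1:**
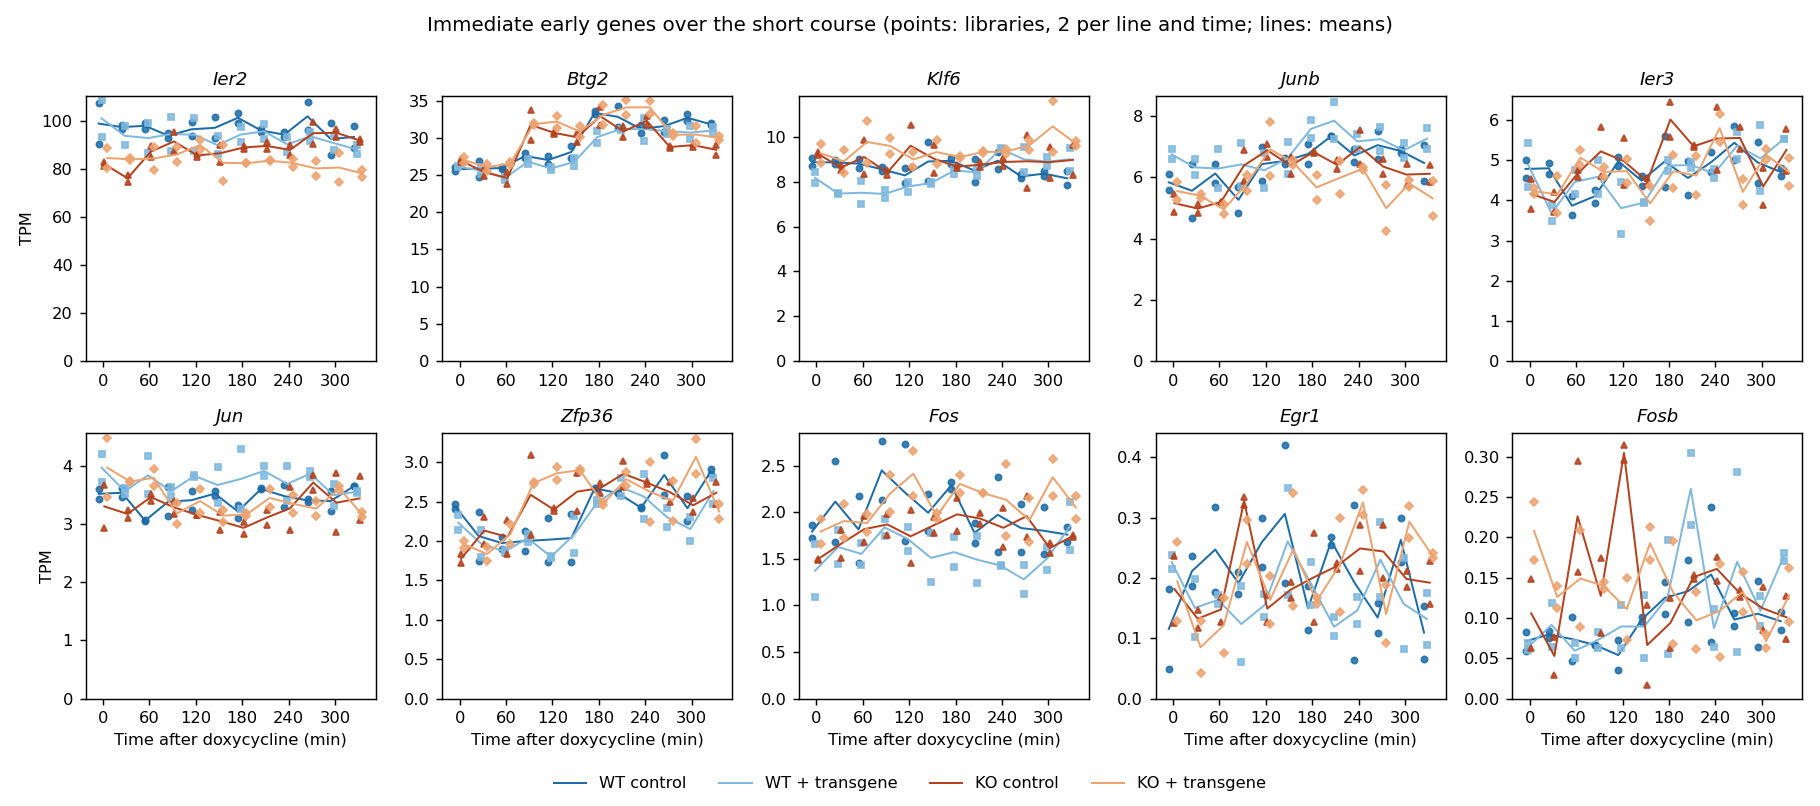
Level of each immediate early gene (TPM, linear axis from 0) against time after doxycycline (min) in the short course; points are the 2 libraries per line and time, lines join their means, and colours give the 4 lines. Btg2 lies at 23.8 to 28.9 TPM at the early times and at 27.7 to 35.1 later, while Fos stays within 1.09 to 2.76 and Egr1 and Fosb do not exceed 0.421.

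The early window asks whether these genes moved soon after doxycycline. The mean of 30, 60 and 90 min was set against 0 min in each line with edgeR's quasi-likelihood test, adjusted over all 18009 genes tested. No immediate early gene passed in any line, where 1, 4, 0 and 2 genes in all passed (0.00555% in the WT control, 0.0222% in the WT transgene, 0% in the KO control and 0.0111% in the KO transgene line). At an unadjusted p below 0.05 stood 2 of the 10 in the WT transgene line (Klf6 and Fos), 2 in the KO control (Zfp36 and Ier2) and 0 in the other lines. Of the 18009 genes, 571, 509, 1198 and 1236 did so in the WT control, WT transgene, KO control and KO transgene line. DESeq2 was not run on this contrast, and a limma fit of log2(TPM + 0.1) called 0 of the 10 genes as well.

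Fos, the AP-1 subunit used most often as a readout of recent stimulation, started from 1.86 and 1.73 TPM in the WT control, with 1.68 and 2.55 TPM after 30 min, 1.45 and 2.18 TPM after 60 min and 2.13 and 2.76 TPM after 90 min. The KO control started from 1.5 and 1.49 TPM, with 1.51 and 1.81 TPM after 30 min, 1.68 and 1.96 TPM after 60 min and 1.75 and 1.99 TPM after 90 min. The replicates of a time lay as far apart as the times did in the WT control, and its values at 0 min sat inside the later range. In the WT transgene line Fos went from 1.66 and 1.09 TPM at 0 min to 1.93 and 1.75 at 90 min, and in the KO transgene line from 1.66 and 1.92 to 2.40 and 2.00. Egr1 gave 0.181 and 0.0497 TPM at 0 min in the WT control, and 0.187 and 0.236, 0.318 and 0.176, and 0.172 and 0.210 at the next 3 times.

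Apart from Egr1 and Fosb, the early log2 fold changes of the 8 remaining genes over the 4 lines (32 values) ran from -0.23 to 0.33, with standard errors of 0.0492 to 0.169 and a smallest adjusted p of 0.706 (edgeR). For Egr1 and Fosb they ran from -0.58 to 0.94 with standard errors of 0.400 to 0.608. A rise of several fold in the 8 genes, the size serum gives in other cells, would have lain many standard errors away if it lasted over the 3 times. The counts of Egr1 and Fosb set a coarse limit. A change at 1 of the 3 times is diluted in their mean. At 90 min alone, 9 of the 10 genes were above 0 in the KO control (median log2 fold change 0.29 against 0.01 over all genes), and none passed. In each WT line 3 were above 0 and none passed, and in the KO transgene line 6 were, with Btg2 passing (edgeR). The times sampled do not show a transient that ended before 30 min, nor one that followed the change of medium and ended before doxycycline.

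Over all 11 later times of the short course, tested together against 0 min, Btg2 changed in every line and Zfp36 and Junb in some of them. In the WT control 2 of the 10 genes passed (Btg2 and Zfp36), beside 2021 genes in all (11.2%). In the WT transgene line 1 passed (Btg2; 2122 genes, 11.8%), in the KO control 3 (Btg2, Zfp36 and Junb; 1031 genes, 5.72%) and in the KO transgene line 3 (again Btg2, Zfp36 and Junb; 2296 genes, 12.7%). DESeq2 called 2, 1, 4 and 3 of the 10 in that order. It called more of all genes than edgeR in the KO lines, so the edgeR shares above do not apply to its counts. The median log2 fold change of the 10 genes was 0.04, -0.03, 0.17 and 0.04, against 0.00 over all genes tested in each line.

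Btg2 was the most regular of them. Single times of a line were all set against its same 2 libraries at 0 min, so their calls are not independent. Its mean log2 fold change over the later times was 0.21 (edgeR adjusted p = 1.86e-09) for the WT control, 0.10 (2.03e-04) for the WT transgene line, 0.14 (9.64e-08) for the KO control and 0.20 (1.79e-08) for the KO transgene line. In WT cells without the transgene Btg2 passed at each single time from 180 to 330 min, with 0.39 ± 0.061 (SE) at 180 min (edgeR adjusted p = 2.93e-05; 2.35% of genes passed) and between 0.27 and 0.36 at the 5 later ones (4.24%, 5.51%, 2.62%, 3.77% and 3.92% of genes). In the WT transgene line it passed at 330 min only, with 0.20 ± 0.060 (edgeR adjusted p = 0.0413; 4.94% of genes). On the log2(TPM + 0.1) scale, where the same times gave 0.20 to 0.25, limma called Btg2 there from 180 to 330 min. The call over all times in this line was lost without its replicate 1 (edgeR adjusted p = 0.91). In the KO control Btg2 passed at 180 min (0.33 ± 0.061, edgeR adjusted p = 0.00214; 0.755% of genes) and 240 min (0.26; 0.922%). With the transgene it passed in the KO background at 90 min (0.25 ± 0.061, edgeR adjusted p = 0.0234; 0.922% of genes) and, with 0.34 to 0.38, at 180, 210 and 240 min (8.27%, 2.75% and 1.52%).

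The mRNA decay factor Zfp36 took part in both KO lines. The KO control started from 1.72 and 1.83 TPM, with 2.73 and 2.61 TPM after 180 min and 2.76 and 2.72 TPM after 240 min, and both libraries of each later time lay above both at 0 min. The log2 fold change was 0.63 ± 0.155 at 180 min (edgeR adjusted p = 0.0263; 0.755% of genes passed) and 0.66 at 240 min (edgeR adjusted p = 0.0161; 0.922%), and over all times 0.51 (edgeR adjusted p = 0.0131). It also passed at 210 min (0.605% of genes), 270 min and 330 min (1.2%), with 0.67, 0.58 and 0.56. In the KO transgene line Zfp36 gave 2.00 and 1.92 TPM at 0 min and 2.85 and 3.29 at 300 min, a change of 0.64 ± 0.149 (edgeR adjusted p = 0.0097; 1.21% of genes). In the WT control it began higher, at 2.46 and 2.41 TPM, stood at 2.05 and 1.90 at 60 min and at 2.67 and 2.67 at 180 min, so that its change over time (edgeR adjusted p = 0.0159) had a mean near 0 (-0.03). The call in the WT control was lost in 4 of the 8 fits that each left out 1 replicate of 1 line, and that in the KO control in 3, as it was in limma's fit of log2 TPM (adjusted p = 0.0688). Without their own replicates 1 and 2 the adjusted p was 0.159 and 0.674 in the WT control and 0.537 and 0.228 in the KO control, and without replicate 1 of the KO transgene line it was 0.135 there (edgeR).

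Junb, the AP-1 subunit with the highest level here, gave 4.86 and 5.45 TPM at 0 min and 6.85 and 6.79 at 180 min in the KO control. There its log2 fold change was 0.55 ± 0.140 at 180 min (edgeR adjusted p = 0.031) and 0.54 at 240 min (edgeR adjusted p = 0.0354). In the KO transgene line its change over time passed (edgeR adjusted p = 0.0356) with a mean of 0.00, and neither Junb call held on the log2 TPM scale (limma adjusted p = 0.103 and 0.234). The first was lost without replicate 1 of the KO control (edgeR adjusted p = 1) and the other without either replicate of either transgene line (edgeR adjusted p = 0.0889 to 0.403). Jun passed at one time of one line, 180 min in the KO transgene line, at -0.37 ± 0.120 (edgeR adjusted p = 0.0428; 8.27% of genes), from 3.45 and 4.47 TPM at 0 min to 3.19 and 3.13. Ier2 passed at 270 min in the KO control, at 0.31 ± 0.085 (edgeR adjusted p = 0.0344; 2.02% of genes), from 82.9 and 80.9 TPM to 90.1 and 99.3. Limma on log2 TPM called neither of these last 2 (adjusted p = 0.285 and 0.309). It called 91 and 67 of all genes in these contrasts, against 1490 and 364 by edgeR. Over all times limma called 357 genes in the KO control and 580 in the KO transgene line, against 1031 and 2296 by edgeR.

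**Figure D2:**
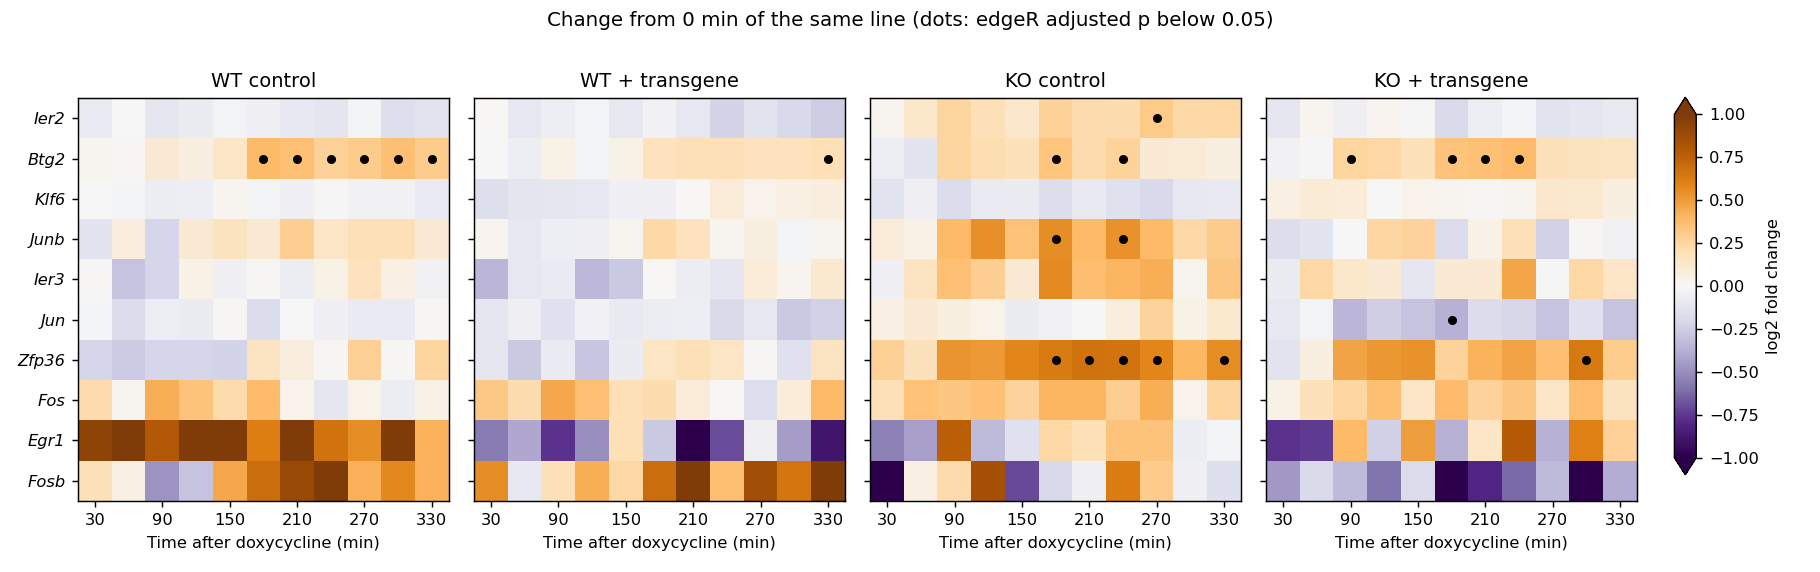
Colour gives the log2 fold change from 0 min of the same line for each gene (rows) and time after doxycycline in min (columns), one panel per line, from edgeR; dots mark an adjusted p below 0.05. Dots gather on Btg2 and Zfp36 from 90 min onwards, such as Btg2 at 0.39 in the WT control at 180 min, and none stands at 30 or 60 min.

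The course did not move evenly, and Btg2 passed at some of the steps where many other genes did. Of the 11 steps between neighbouring times, 150 to 180 min was the one with many changed genes in the WT lines, 456 (2.53%) in the control and 548 (3.04%) with the transgene. In the KO lines the step from 60 to 90 min had 64 (0.355%) and 754 (4.19%) and that from 150 to 180 min 34 (0.189%) and 388 (2.15%). The 9 other steps had 0 to 5 in any line.

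Btg2 gave 27.3 and 28.9 TPM at 150 min and 33.6 and 33.1 at 180 min in the WT control, a step of 0.24 ± 0.062 (edgeR adjusted p = 0.0199) that did not pass with low count genes kept (edgeR adjusted p = 0.065). In the WT transgene line the same step ran from 27.3 and 26.2 TPM to 30.9 and 29.3 and did not pass (0.12, edgeR adjusted p = 0.324). In the KO control Btg2 went from 23.8 and 25.4 TPM at 60 min to 29.7 and 33.8 at 90 min, 0.38 ± 0.061 (edgeR adjusted p = 2.67e-04), and in the KO transgene line from 26.8 and 26.3 to 31.7 and 32.0, 0.26 ± 0.060 (edgeR adjusted p = 0.00559). At the step from 150 to 180 min Btg2 passed in neither KO line. No other immediate early gene passed at any of the 11 steps in any line.

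**Figure D3:**
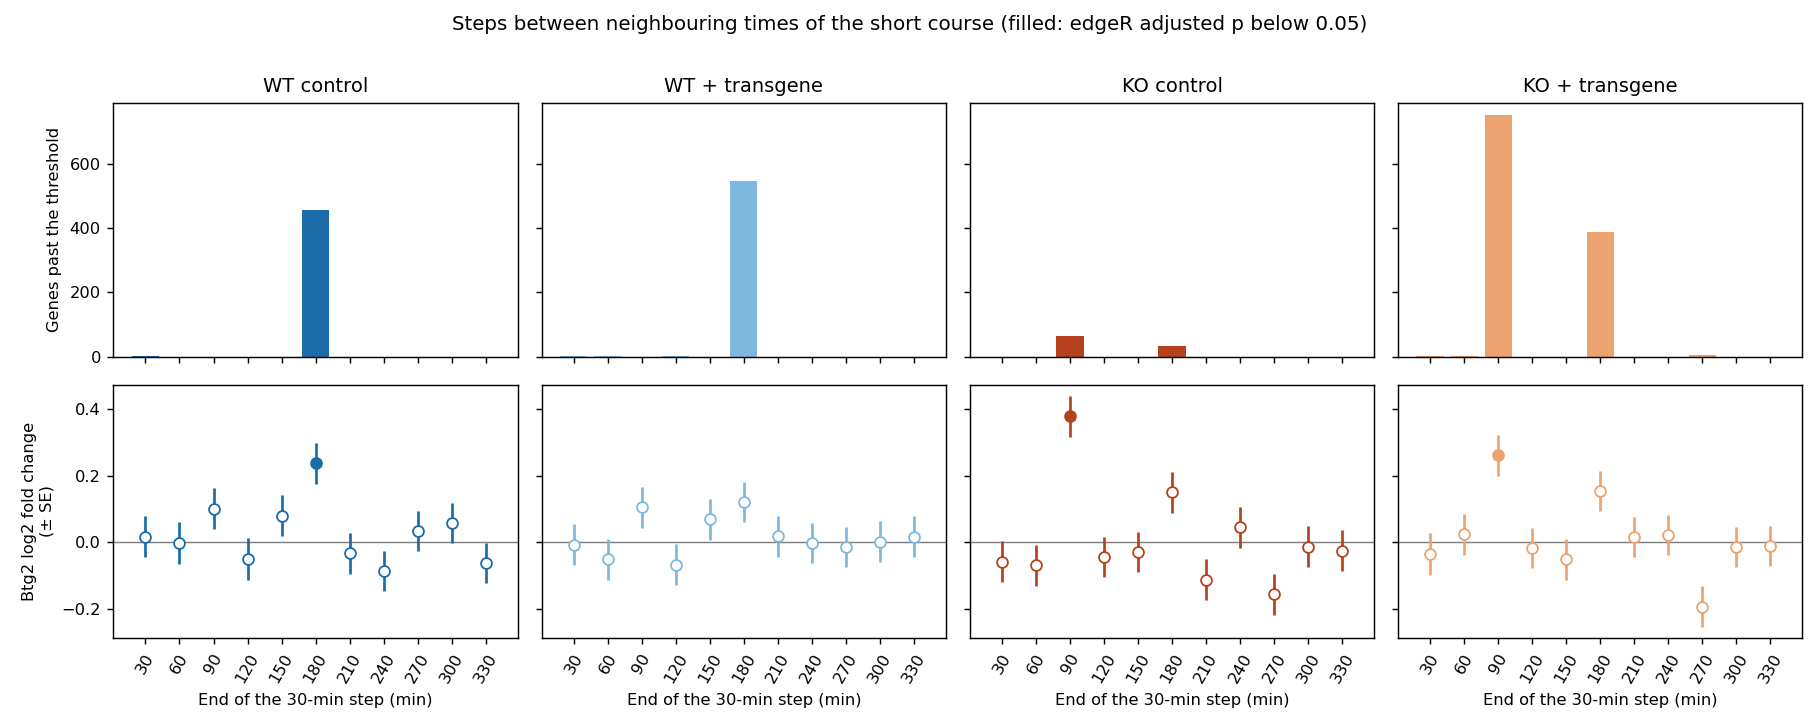
Top, number of genes past the threshold at each 30-min step, by the end of the step in min, one panel per line; bottom, the log2 fold change of Btg2 at that step with its SE, filled where the edgeR adjusted p is below 0.05. Genes gather at the steps that end at 180 min (456 and 548 in the WT lines) and, in the KO lines, at 90 min (64 and 754), and the filled Btg2 points are 0.24 (not passed with low count genes kept), 0.38 and 0.26.

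Split at those steps, a split chosen after the values were seen and so a description with no test, the levels of Btg2 fell into 2 ranges. In the WT lines its 24 libraries before 180 min were at 24.3 to 28.9 TPM (median 26.1) and the 24 from 180 min on at 29.3 to 34.2 (median 31.5). In the KO lines its 12 libraries before 90 min were at 23.8 to 27.5 TPM (median 26.4) and the 36 from 90 min on at 27.7 to 35.1 (median 31.1). No library of an earlier range reached the later one in either background, and the later mean was 1.20 times the earlier in both. The share of all genes whose ranges part at these splits was not counted, so the parting is not shown to be particular to Btg2. Library totals overlapped between the ranges (20016762 to 37195019 counts before and 19013652 to 33562355 from 180 min in the WT lines). The mitochondrial share in the WT lines was 3.54 to 4.30% (median 3.84) before and 3.36 to 3.84% (median 3.67) from 180 min. In the KO lines it was 3.45 to 4.28% (median 3.91) before and 3.47 to 4.17% (median 3.75) from 90 min. The medians were thus lower after the split, and whether this bears on the steps was not tested. Lanes and culture days are not named in the labels, so their part in these steps was not tested.

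Zfp36 showed the same kind of split less sharply. In the KO transgene line it was at 1.74 to 2.21 TPM before and 2.25 to 3.29 from 90 min on, without overlap, whereas in the KO control (1.72 to 2.31 and 2.08 to 3.10) and the WT lines (1.73 to 2.46 before and 2.00 to 3.09 from 180 min) the ranges overlapped. Junb did not overlap in the KO control (4.83 to 5.45 TPM in 6 libraries before and 5.76 to 7.54 in 18 from 90 min) and overlapped in the other lines. For Fos, Fosb, Jun, Egr1, Ier2, Ier3 and Klf6 the ranges overlapped in every line. Here too the share over all genes was not counted.

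Whether Firre RNA itself moved these genes was tested as a response, the change in a transgene line minus the change in its control. None of the 10 passed this test in the short course. In the KO background 0 passed (171 genes in all, 0.95%), with 2 at an unadjusted p below 0.05 (Junb and Ier2, beside 2102 of all 18009 genes) and 0 by DESeq2. In the WT background 0 passed (46 genes, 0.255%), with 0 at an unadjusted p below 0.05 (beside 511 of all genes) and 0 by DESeq2.

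As a mean over the 11 later times the response was also 0 of 10 by edgeR and by DESeq2 in both backgrounds (26 genes, 0.144%, in KO and 27, 0.15%, in WT). At an unadjusted p below 0.05 stood 4 in KO, Klf6 (0.18), Jun (-0.29), Junb (-0.34) and Ier2 (-0.27 ± 0.089, edgeR adjusted p = 0.241), and 1 in WT, Egr1 (-1.42 ± 0.57), a gene of about 11 counts per library. Of all 18009 genes, 2042 in KO and 828 in WT stood there. The median response of the 10 genes was -0.15 in KO and -0.05 in WT, against -0.01 and 0.00 over all genes. The call of Ier2 depended on the setting. Its response in the test over all times passed in KO when low count genes were kept (edgeR adjusted p = 4.26e-04), with a spline of time (edgeR adjusted p = 0.0455) and without replicate 2 of the KO transgene line (edgeR adjusted p = 0.0309). Its mean response did not pass with low count genes kept (-0.25, edgeR adjusted p = 0.0614) and passed without that replicate (-0.40, edgeR adjusted p = 0.026). The difference between the responses of the 2 backgrounds passed for 0 of the 10 (1 gene in all, 0.00555%, by edgeR). At an unadjusted p below 0.05 stood 0 of the 10, beside 1749 of all genes.

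**Figure D4:**
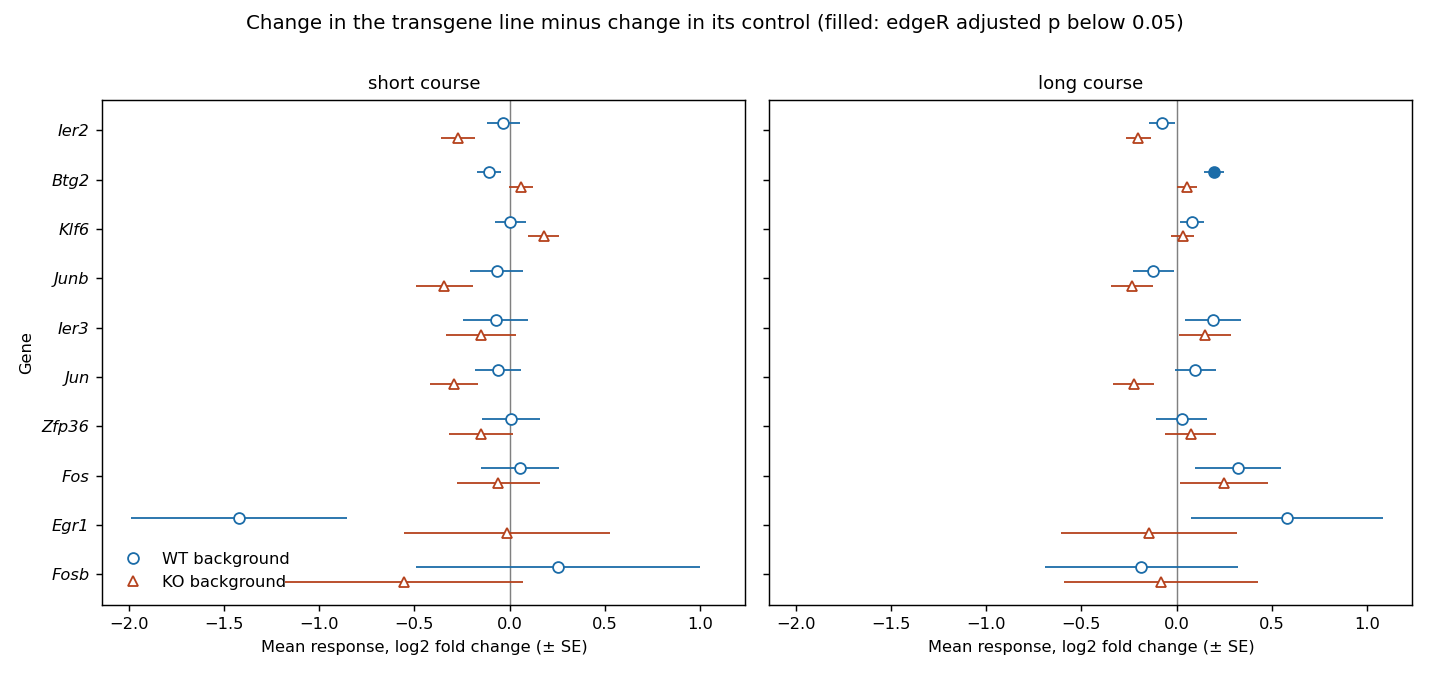
Mean response to the Firre transgene (log2 fold change of the transgene line minus that of its control, horizontal bars ± SE) of each immediate early gene in the short (left) and long (right) course, circles for the WT and triangles for the KO background; filled symbols passed edgeR's adjusted p below 0.05. The only filled symbol is Btg2 in the long course, WT background, at 0.19, and the bars of Egr1 and Fosb are the widest.

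During the short course 1 of the 10 genes differed between the control lines. Across the 12 times, Ier2 was lower in the KO than in the WT control (74.5 to 99.3 TPM against 85.7 to 108), by -0.11 ± 0.024 on the log2 scale (edgeR adjusted p = 2.21e-04), and it was the one of 10 to pass where 8239 genes did (45.7%). At 0 min no immediate early gene differed between transgene line and control, in KO (29 genes, 0.161%) or in WT (528 genes, 2.93%), with 1 in each at an unadjusted p below 0.05 (Jun and Junb) and 0 by DESeq2. At that unadjusted p stood 2233 of all 18009 genes in KO and 2708 in WT. The change over time differed between the control lines for Btg2 (198 genes, 1.1%), most at 300 min, where it was 0.26 lower in KO (log2 difference -0.26, edgeR adjusted p = 0.00609 over all times). This call was lost in each of the 4 fits that left out a replicate of a control line (edgeR adjusted p = 0.104 to 0.447).

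Related genes were taken from lists chosen by function, and a gene is said to have risen or fallen where it passed the test over all times, by the sign of its mean change. The counts stand beside shares of all genes of 11.2% in the WT control, 11.8% in the WT transgene, 5.72% in the KO control and 12.7% in the KO transgene line. Among 10 other AP-1 subunits tested, none changed over the short course in the control lines, while in the WT transgene line 1 rose and 1 fell (Jdp2, an AP-1 repressor, 0.96, edgeR adjusted p = 7.06e-10, and the stress-induced Atf3, -0.32, edgeR adjusted p = 0.0309) and in the KO transgene line 1 rose (Jdp2, 0.53) and 1 fell (Mafg, -0.09). Jdp2 responded to the transgene in the WT background, with a mean of 1.01 ± 0.193 (edgeR adjusted p = 0.00179). The median log2 fold change of the 10 subunits was -0.04, -0.10, 0.10 and 0.01 in the WT control, WT transgene, KO control and KO transgene line. Of 6 genes of the EGR, NAB and NR4A families, 2 rose in each WT line and 1 in each KO line, Nr4a1, a nuclear receptor gene, being among them in both controls.

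Of 31 further rapid response genes, 4 rose and 8 fell in WT cells without the transgene, and 5 rose and 9 fell with it; 7 rose and 4 fell in the KO control, and 5 rose and 12 fell in the KO transgene line. Tob1, the family partner of Btg2, rose by 0.26 in the WT control (edgeR adjusted p = 3.31e-16), and the kinase gene Sgk1 changed there with a mean of -0.17. Of 10 ERK feedback genes 1 rose and 2 fell in WT cells without the transgene, 3 fell with it, and 2 rose and 3 fell in each KO line. Dusp6, the ERK phosphatase gene, fell by 0.25 in the WT control (edgeR adjusted p = 1.0e-12) and by 0.35 in the WT transgene line (edgeR adjusted p = 6.22e-17). The median of the rapid response genes was -0.03, -0.06, 0.10 and -0.02 in the 4 lines in the same order, against 0.00 over all genes. Of 16 upstream kinases and transcription factors, 2 rose in the WT control, 2 rose and 1 fell in the WT transgene, none passed in the KO control and 1 rose and 5 fell in the KO transgene line. Of 10 genes of handling or heat stress 2 rose in the WT control, 2 rose and 1 fell in the WT transgene, 4 rose and 2 fell in the KO control and 1 rose and 2 fell in the KO transgene line, with medians of 0.10, 0.04, 0.24 and 0.08. The chaperone gene Hspa8 fell by 0.13 in the WT transgene (edgeR adjusted p = 1.60e-05). At the step from 60 to 90 min in the KO transgene line, where 4.19% of all genes passed, 5 of the rapid response genes, 1 ERK feedback gene, 3 upstream genes and 1 stress gene were lower, among them the repressor gene Bhlhe40 (-0.82 ± 0.178, edgeR adjusted p = 0.00326).

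The long course, from 12 h to 96 h, differed from the short one in that most of these genes changed. Of the 10, 7 changed over time in the WT control (9632 genes in all, 54.8%), 7 in the WT transgene (10868, 61.9%), 6 in the KO control (10465, 59.6%) and 8 in the KO transgene line (10684, 60.8%), shares of the 10 near those of all genes. Egr1 and Fosb passed in no line, Fos in the KO transgene line (in the KO control its edgeR adjusted p was 0.0557), and Junb in all but the KO control. Levels in TPM and fold changes from counts part company in this course. Relative to 0 min the median gene's TPM moved by -0.167 to 0.067 on the log2 scale between groups (-0.051 to 0.062 in the short course), and single immediate early genes moved further, so each call below was also taken on log2(TPM + 0.1). From counts, the shares of all genes called at 720, 1440, 2880 and 5760 min were 4.83, 33.4, 38.4 and 26.5% in the WT control and 9.22, 39.9, 40.8 and 30.9% with the transgene. In the KO control they were 8.84, 44.8, 47.6 and 40%, and with the transgene 11.5, 43.4, 45.7 and 38.7%.

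Ier3, which encodes a short-lived regulator of apoptosis and ERK signalling, had the largest change of the 10. It was at 8.44, 7.56 and 7.17 TPM at 0 min and 2.73, 3.16 and 2.53 at 1440 min in the WT control, at 7.79, 5.91 and 7.73 and then 3.42, 2.68 and 2.65 in the WT transgene line, at 10.8, 9.43 and 12.5 and then 3.82, 4.43 and 3.47 in the KO control, and at 9.92, 9.31 and 10.4 and then 3.78, 3.69 and 3.53 in the KO transgene line. The 2 times did not overlap in any line. The share of all genes whose ranges parted was not counted, here or for the other genes of this course. The log2 fold changes at 1440 min were -1.49 ± 0.150, -1.32 ± 0.144, -1.55 ± 0.130 and -1.42 ± 0.132 (edgeR adjusted p = 3.26e-13, 2.64e-12, 3.58e-17 and 4.03e-15). At 720 min they were -0.68, -0.35, -0.94 and -0.55, of which that in the WT transgene line did not pass (edgeR adjusted p = 0.0791). By 5760 min levels had not returned to those at 0 min of this course, with 2.84, 2.64 and 3.19 TPM in the WT control and 3.65, 3.07 and 3.73 in the KO control. Ier3 at 0 min of the short course was lower, as given at the end.

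Jun rose in all 4 lines. It went from 2.60, 3.18 and 2.91 TPM at 0 min to 3.89, 3.77 and 3.58 at 5760 min in the WT control and from 2.25, 2.26 and 2.40 to 5.12, 5.04 and 4.99 in the KO control. Changes at 5760 min were 0.47 ± 0.092, 0.62 ± 0.095, 1.19 ± 0.089 and 0.81 ± 0.090 in the WT control, WT transgene, KO control and KO transgene line (edgeR adjusted p = 3.38e-05, 1.46e-07, 2.92e-19 and 4.51e-12). The rise was larger in the KO than in the WT control, by 0.50 on average over the 4 times (edgeR adjusted p = 3.41e-06, where 3311 genes, 18.8%, differed). In the WT control the change of Jun over time did not pass once replicate 1 was left out (edgeR adjusted p = 0.0766).

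Zfp36 also rose in all lines, by 0.43, 0.53, 0.69 and 0.71 at 2880 min, from 1.60, 1.42 and 1.55 TPM to 2.59, 2.68 and 2.29 in the KO control. Ier2 rose by 0.36, 0.25, 0.37 and 0.23 at that time. The tests over time of Ier3, Jun, Zfp36, Ier2 and Btg2 passed in all 4 lines on log2 TPM too (limma). That of Btg2 in the WT control, with a mean of -0.06, was lost without any 1 replicate (edgeR adjusted p = 0.0568 to 0.466). Klf6 did not pass on both scales in all lines. From counts it rose by 0.24, 0.24, 0.39 and 0.38 at 2880 min, but in the WT control it stood at 9.92, 10.2 and 10.2 TPM at 0 min and at 10.2, 10.1 and 10.03 at 2880 min. On log2 TPM its change over time did not pass in the WT control (limma adjusted p = 0.144) or the WT transgene line (0.0691), with -0.07 at 2880 min in the latter, and it passed in both KO lines.

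Junb changed by -0.32, -0.48 and -0.27 at 2880 min in the WT control, WT transgene and KO transgene line. The KO control, at -0.01, did not pass. In the WT control it was at 6.35, 6.0 and 5.55 TPM at 0 min and 4.77, 4.52 and 4.4 at 2880 min. Its test over time was lost without replicate 1 in the WT control (edgeR adjusted p = 0.164) and without replicate 1 or 3 in the KO transgene line (0.0856 and 0.128). Fos rose at 1440 min in the KO transgene line (0.97 ± 0.190, edgeR adjusted p = 1.51e-05), from 0.894, 1.38 and 0.713 TPM to 1.69, 1.72 and 1.27, of which 1.27 lies inside the range at 0 min. It passed there at 2880 and 5760 min too (0.80 and 0.58), and in the KO control at 1440 min (0.55 ± 0.204, edgeR adjusted p = 0.0229) and 2880 min (0.59 ± 0.206, edgeR adjusted p = 0.0134). The KO control went from 0.850, 0.722 and 0.678 TPM at 0 min to 1.07, 1.02 and 0.895 at 1440 min, without overlap. On log2 TPM only 1440 min in the KO transgene line passed of these 5 (limma adjusted p = 0.0238), and its change over all times there did not (limma adjusted p = 0.0716).

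Much of this change fell between 720 and 1440 min. At that step 3 of the 10 passed in the WT control (Ier3, Btg2 and Ier2, 30.5% of genes), 4 in the WT transgene (Ier3, Jun, Junb and Ier2, 41.8%), 6 in the KO control (Klf6, Ier3, Btg2, Zfp36, Jun and Ier2, 38.5%) and 6 in the KO transgene line (Klf6, Ier3, Fos, Zfp36, Jun and Ier2, 39.4%).

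**Figure D5:**
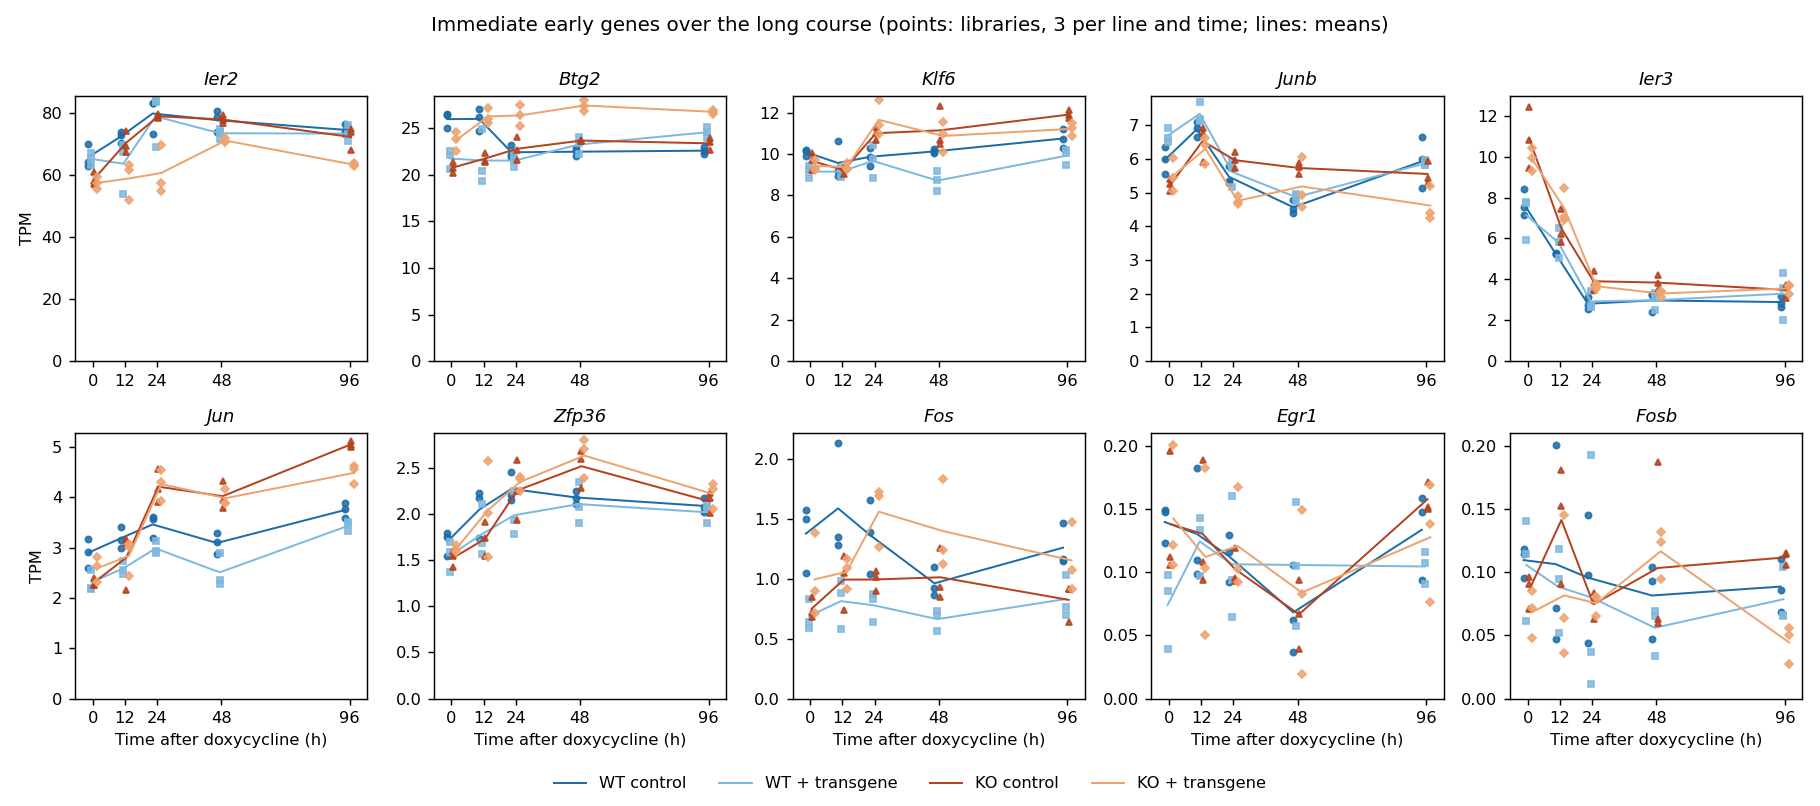
Level of each immediate early gene (TPM, linear axis from 0) against time after doxycycline (h) in the long course; points are the 3 libraries per line and time, lines join their means, and colours give the 4 lines. Ier3 drops from 5.91 to 12.5 TPM at 0 min to 2.53 to 4.43 at 1440 min (24 h), and Jun climbs most in the KO control, to 4.99 to 5.12 at 5760 min (96 h).

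The response to Firre in the long course involved Btg2 in the WT background and none of the 10 over all times in KO. Firre itself reached 121 TPM in the WT and 50.8 in the KO transgene line of this course. In the short course it reached 1240 and 471, so the 2 courses do not test the same level of Firre. In KO 0 passed (2024 genes, 11.5%), with 2 at an unadjusted p below 0.05 (Fosb and Ier2, beside 4069 of all 17565 genes) and 0 by DESeq2. At 1440 min alone Ier2 passed, at -0.29 ± 0.085 (edgeR adjusted p = 0.0306; 6.46% of genes), with 78.2, 79.8 and 78.7 TPM in the KO control and 69.7, 55.0 and 57.2 with the transgene. On log2 TPM that call was just missed (limma adjusted p = 0.052), and as a mean over the times its response was -0.20 ± 0.068 (edgeR adjusted p = 0.0814; 4.92% of genes).

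In WT, Btg2 was the 1 of 10 to pass (edgeR adjusted p = 3.03e-04; 1720 genes, 9.79%), with a mean of 0.19 ± 0.053 (edgeR adjusted p = 0.0188; 3.51%), responses of 0.27 ± 0.067 at 2880 min (edgeR adjusted p = 0.00958; 2.56%) and 0.31 ± 0.066 at 5760 min (edgeR adjusted p = 8.03e-04; 8.23%). At 0 min the control was at 26.5, 25.1 and 26.4 TPM and the transgene line at 22.6, 22.1 and 20.6, and at 5760 min they were at 22.2, 22.6 and 23.0 and at 24.6, 23.99 and 25.2. The transgene line was thus the lower of the pair at 0 min and the higher at 5760 min, without overlap at either time. The gap at 0 min, of -0.25 ± 0.047 (edgeR adjusted p = 4.23e-05), enters every response of Btg2 in this background. The difference between the responses passed for 0 of the 10 genes (147 genes, 0.837%, by edgeR). Jun stood at an unadjusted p below 0.05, beside 1749 of all genes.

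At 0 min of the long course 4 of the 10 were lower in the WT transgene line than in its control (2312 genes, 13.2%), Btg2 and Fos (-0.90 ± 0.200, edgeR adjusted p = 6.47e-04) as well as Jun (-0.33 ± 0.097, edgeR adjusted p = 0.0138) and Klf6 (-0.16 ± 0.055, edgeR adjusted p = 0.0457). Fos was at 1.58, 1.5 and 1.05 TPM in the control and 0.831, 0.638 and 0.592 in the transgene line. The calls of Jun and Klf6 did not hold on log2 TPM (limma adjusted p = 0.0648 and 0.227), where 853 of all genes passed. Nor did they hold without replicate 2 or 3 (edgeR adjusted p = 0.139 and 0.133 for Jun, 0.257 and 0.276 for Klf6). That of Fos was lost without replicate 2 (edgeR adjusted p = 0.0958), and none of the 4 had passed at 0 min of the short course. In the KO background Btg2 was higher with the transgene, by 0.18 ± 0.047 (edgeR adjusted p = 0.0126; 622 genes, 3.54%), a call that was lost without replicate 2 (adjusted p = 0.287), without replicate 3 (0.248) and on log2 TPM (0.0821). Between the control lines, over all times of the long course, Ier3 was higher in KO (0.34 ± 0.067, edgeR adjusted p = 1.53e-05), and Fos (-0.53 ± 0.090, edgeR adjusted p = 5.36e-07), Btg2 (-0.12 ± 0.021, edgeR adjusted p = 2.66e-06) and Ier2 (-0.10 ± 0.027, edgeR adjusted p = 0.0014) were lower, with 9174 genes called in all (52.2%). The Ier2 difference did not pass on log2 TPM (limma adjusted p = 0.221).

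The lists of related genes changed in larger numbers than in the short course, as did all genes (54.8% in the WT control, 61.9% in the WT transgene, 59.6% in the KO control and 60.8% in the KO transgene line). Of 9 other AP-1 subunits 5 rose and 0 fell in each control line, 2 and 2 in the WT transgene and 4 and 1 in the KO transgene line. Of 31 rapid response genes 15 rose and 12 fell in the WT control and 14 and 13 in the KO control, with medians of 0.05 and -0.01 against -0.01 and 0.00 over all genes. Of the 10 stress genes 2 rose and 6 fell in the WT control and 2 rose and 7 fell in the KO control. Jdp2 responded to the transgene in both backgrounds, by 0.50 in KO (edgeR adjusted p = 0.03) and 0.53 in WT (edgeR adjusted p = 0.0104).

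Whether these genes moved together between replicates of one group was examined in the 48 groups of the short course, as the difference between replicates 1 and 2 in log2 CPM, each count scaled to the library total. Of the 45 pairs of genes 30 correlated positively, with a median r of 0.0631. One pair passed after adjustment over the 45, Ier2 with Ier3 (Pearson r = 0.503, permutation p = 1.50e-04, adjusted p = 0.00675; Spearman rho = 0.508; r = 0.478 without the 2 groups farthest from the median of Ier2). On log2(TPM + 1) no pair passed, so this relation depends on the scale. The permutations took the 48 differences as independent, although libraries of one line with the same replicate number were weakly alike.

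Over the 48 group means of the short course, the genes most like Btg2 among those with a mean of at least 1 CPM were Cln8 (r = 0.865), Zfp296 (0.863) and Tmem186 (0.833). For Zfp36 they included Zfp296 (0.819) and Zfp866 (0.799). They were, for Junb, Spindoc (0.875), Sesn2 (0.846) and Bbc3 (0.824), and for Ier2 Igfbp2 (0.919), Itpka (0.903) and Epop (0.900). Group means share lines and times, so these values describe likeness and carry no p.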

How the data were processed

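RNA abundance was measured in 156 libraries of mouse embryonic stem cells. The authors quantified transcripts with Salmon 1.5.2 (mm10), per the submitters' processing notes, and deposited estimated counts per gene, of which 76% are whole. A second deposited table holds values named TPM per the file headers, which sum to 924452 to 947484 per library. Whether these TPM were corrected for GC or fragment bias is not given in the sources used here. TPM served for levels and counts, rounded, for the main tests.

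The immediate early genes and the lists of related genes were chosen with earlier results of these data known. Courses were fitted separately in edgeR 4.0.16 (R 4.3.3), with 1 coefficient per line and time, TMM scaling, filterByExpr (minimum count 10, minimum total 15) and robust quasi-likelihood F tests. This left 18009 genes in the short and 17565 in the long course. P-values were adjusted by Benjamini-Hochberg over all of them, with a threshold of 0.05. Standard errors were derived as |log2 fold change| divided by the root of F. A fold change over several times is their mean. Alternatives were DESeq2 1.42.0 and its size factors, no filter, a replicate block, a spline of time (3 df), each replicate left out and, chosen after seeing the data, 1 library left out and limma 3.58.1 on log2(TPM + 0.1). Correlations used 100000 permutations of the groups. Scripts were tested on simulated counts.

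All 10 genes are named, with at most 3 passing genes of each list by smallest adjusted p and the 3 genes most alike in log2 CPM (prior count 2, mean of at least 1 CPM, no provisional symbol). One gene that this rule names is not reported here. Identifiers of 2 genes, Junb and Ier2, matched GENCODE M21 without their version. Replicates of a group differed by more than counting noise (smallest chi-square per degree of freedom 2.09 in the short and 1.75 in the long course), so none was merged.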

Additional observations from a re-analysis of the deposited data

Results flagged for a closer look

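The change over time differed between the KO and WT control lines for 1 immediate early gene in the short and 3 in the long course, by the F test of the difference itself (edgeR). Values are the mean change in KO minus that in WT on the log2 scale. In the short course Btg2 differed by -0.072, with an adjusted p of 0.00609 that was lost when a replicate of either control line was left out. In the long course Btg2 differed by 0.244 (edgeR adjusted p = 3.19e-06), with mean changes of -0.06 in the WT and 0.19 in the KO control. Jun differed by 0.499 (edgeR adjusted p = 3.41e-06), and both of these passed in every alternative run. Klf6 differed by 0.122 (edgeR adjusted p = 0.0212), and its call was lost without the filter (0.0532), without any 1 replicate (0.164 to 0.187) and on log2(TPM + 0.1) (0.146).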

How the results depend on the processing

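The calls of Btg2 over the short course in the WT control and both KO lines and of Ier3 over the long course in all 4 lines held under every alternative run. Of the comparisons of a called gene with an alternative, 478 kept the call, 51 lost it and none reversed the direction of a single contrast, though the mean of Klf6 over the long course in the WT control went from 0.13 to -0.004 on log2(TPM + 0.1). DESeq2 size factors and the replicate block changed no number of immediate early genes called past 1.5 times. Libraries with the same replicate number were weakly alike within a line of the short course. Their deviations had a median r of 0.0797, with 39.4% of pairs over 0.1. For the same number in other lines the median was 0.0125, with 18.9% of pairs over 0.1. In the long course the medians were 0.0143 and 0.0041. With the replicate block, 1 term shared by all lines, the short response in KO rested on 279 genes against 171.

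Out of 10 immediate early genes, the WT transgene line had 1 called over the short course, 2 without the filter, 2 by limma on log2(TPM + 0.1) and 5 with a spline of time. The KO control had 3, 5 with the spline and 1 by limma. The short response in KO had 0, and 1 without the filter or with the spline. Without the filter the difference between control lines in the short course had 2 against 1, the steps of the WT control 0 against 1 (Btg2, edgeR adjusted p = 0.065), the steps of the KO transgene line 2 against 1 and the long response in KO 1 against 0. At 0 min of the long course limma on log2 TPM called 0 against 1 in KO and 2 against 4 in WT. Over all genes it called 185 against 622 in KO and 853 against 2312 in WT. On log2(TPM + 1) 0 pairs of replicate differences passed against 1. The cause was not tested.

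With a replicate left out, the short course called 1 to 2 in the WT control, 0 to 2 in the WT transgene, 1 to 4 in the KO control and 1 to 3 in the KO transgene line. The short response in KO called 0 to 1, its mean 0 to 1, the control lines 1 to 2 and their difference of change 0 to 1. In the long course the WT control called 4 to 7, the response in KO 0 to 1, and the lines at 0 min 0 to 1 in KO and 1 to 4 in WT. Without replicate 1 of the WT transgene line the short-course call of Btg2 there was lost (edgeR adjusted p = 0.91).

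Numbers of all genes called moved in several tests of the short course. Over all times the spline called 3918, 4565, 2390 and 3609 against 2021, 2122, 1031 and 2296, limma 1211, 357 and 580 in the WT control, KO control and KO transgene line, and DESeq2 2285 and 3477 in the KO lines. With a replicate left out the lowest numbers were 571, 414, 109 and 544. The short response in KO ran from 36 to 554 genes with a replicate left out, with 1232 without the filter and 34 by limma, and without the filter the early change called 62, 51, 143 and 141 genes, none of them an immediate early gene. Counts of about 10 per library limit Egr1 and Fosb in every comparison.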

Other observations

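Ier3 stood at different levels at 0 min of the 2 courses. At 0 min of the long course its 12 libraries lay at 5.91 to 12.5 TPM. At 0 min of the short course its 8 libraries lay at 3.78 to 5.42. The ranges did not overlap. The long-course libraries at 1440 min, at 2.53 to 4.43 TPM, lay partly below the short-course range. Ier2 lay apart the other way. It was at 55.5 to 70.1 TPM at 0 min of the long course and at 74.5 or more throughout the short course. The share of all genes that lay apart between the courses was not counted. The courses differ in more than time and share no library, so course and batch cannot be told apart, and these differences were not tested. Over all libraries of a course, every immediate early gene but Klf6 had the lower median in the long course. Fos was at 0.999 TPM over 60 libraries against 1.80 over 96, and Ier2 at 70.7 against 89.9. Klf6 was at 10.1 against 8.73.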
